A study of Arabidopsis thaliana with 24 samples.

Results

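In whole rosettes of well-watered Arabidopsis thaliana, 70 of 11926 measurable probe sets had a pre-dawn mean at least 1 log2 unit above the mean of every other time sampled. A probe set is the group of array probes that reports 1 transcript or a few similar ones, and a difference of 1 on the log2 scale is a factor of 2. They were chosen by the measured log2 values of the well-watered arrays, from the deposited table without its control probe sets. A probe set counted as measurable if at least 3 of the 24 arrays had a value of 5 or more. For each probe set the margin was computed as the pre-dawn mean minus the highest mean of the 3 other times, over the 3 well-watered arrays of each time. All probe sets with a margin of 1 or more were kept, since they were fewer than the 200 that would have been the upper limit. Of the 70, 30 are assigned to exactly 1 gene (28 genes in all), 2 to several genes and 38 to none in the annotation used, and the 38 are given here by probe set ID. For 8 of the 70, the probe set ID marks probes that match more than 1 transcript.

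The plants were wild type of the ecotype Columbia-0, grown in Sunshine mix under a 12 h photoperiod and 32 days old at harvest. Well-watered plants received water for all 32 days. Water-limited plants received it for 28 days and none for the last 4. Harvests were at 12 h (midday), 18 h (late day), 0 h (midnight) and 6 h (pre-dawn), with 3 biological replicates for each regime and time, which makes 8 groups and 24 arrays. The labels do not say how many rosettes went into 1 array. As a check of the tissue, the leaf gene RCA, which encodes Rubisco activase, lay between 13.65 and 14.62 log2 on all arrays. Of the 2 root markers measured, the root hair gene EXPA7 lay between 2.2 and 2.28, at the floor of the scale, and PYK10, a beta-glucosidase gene, between 4.59 and 8.04. The guard cell gene FAMA lay between 5.19 and 7.28. In whole rosettes, a lower level can mean fewer cells of a type or less RNA per cell, and these cannot be told apart.

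In plants the circadian clock and the light and dark phases both set the daily course of many transcripts. The end of the night comes before the shift from starch breakdown to photosynthesis, and transcripts of cold-responsive genes are known to be gated by the clock. COR15A, COR15B and COR27 are well-known cold-responsive genes, COR27 is also a regulator of clock genes, and PWD (phosphoglucan, water dikinase) phosphorylates starch granules so that they can be broken down at night.

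The margin in well-watered rosettes, which chose the members, had a median of 1.31 log2 and ran from 1.00 to 3.67. The next highest time was midnight for 37 members, midday for 32 and late day for 1. Just inside the limit of 1 lay AT4G04940 at 1.02, AT4G12830 at 1.02 and 258735_at at 1.00. Just outside it lay 256676_at at 1.00 (0.9966 before rounding), CHL at 0.98 and AT3G48080 at 0.98. No gap in the values marks the limit. In all, 3083 of the 11926 probe sets had their highest well-watered mean before dawn.

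The water-limited arrays took part in the filter on low values and in nothing else of the choice, so the timing was tested on those 12 arrays alone. A probe set was called a pre-dawn peak when pre-dawn lay above midday, above late day and above midnight, taking the largest of the 3 one-sided p-values from limma and adjusting it over all 11926 probe sets. In water-limited rosettes 68 of the 70 members again had their highest mean before dawn, and the other two, AT4G04940 and 262832_s_at, were highest at midday. The median margin was 1.16 log2, with values from -0.20 to 3.42, beside a median of -0.24 over all probe sets tested. It was above 0.5 in 63 members, above 1 in 44 and above 2 in 7. Of the 70 members, 27 were called pre-dawn peaks at an adjusted p under 0.05 (38.6%), beside 0.52% of all probe sets tested (62 of 11926), and 58 had an unadjusted p under 0.05. Leaving out 1 water-limited array at a time gave between 11 and 40. The lowest counts were 11 (without pre-dawn replicate 1), 12 (pre-dawn replicate 3) and 16 (midnight replicate 2), and the highest was 40 (late day replicate 2). The count was 47 with array quality weights, 14 with no filter on low values and 39 without the 3 late-day arrays, where only midday and midnight were compared. With 4 members set aside that had fewer than 3 water-limited arrays at 5 or more, 27 of 66 were called. That filter can still be passed through the 3 water-limited pre-dawn arrays alone, so it favours a pre-dawn peak. With a mean of at least 6 log2 over all 24 arrays asked for instead, 19 of 48 members were called.

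Each pair of times was also compared by itself, with two-sided limma tests. Pre-dawn lay above midday in 54 of the 70 members, beside 6.38% of all probe sets tested. It lay above late day in 65 members, beside 19.2%, and above midnight in 55 members, beside 6.2%. In limma 0 of the 70 lay below any of these times, beside 20.5% of all probe sets tested that lay below at least 1 of them, and 0 of the 70 did at an unadjusted p under 0.05. The median difference of the members was 1.54 log2 from midday, 2.74 from late day and 1.43 from midnight, beside medians of all probe sets between -0.01 and 0.03. In 58 members all 3 pre-dawn arrays lay above all 9 other water-limited arrays, beside 5.18% of all probe sets tested.

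**Figure D1:**
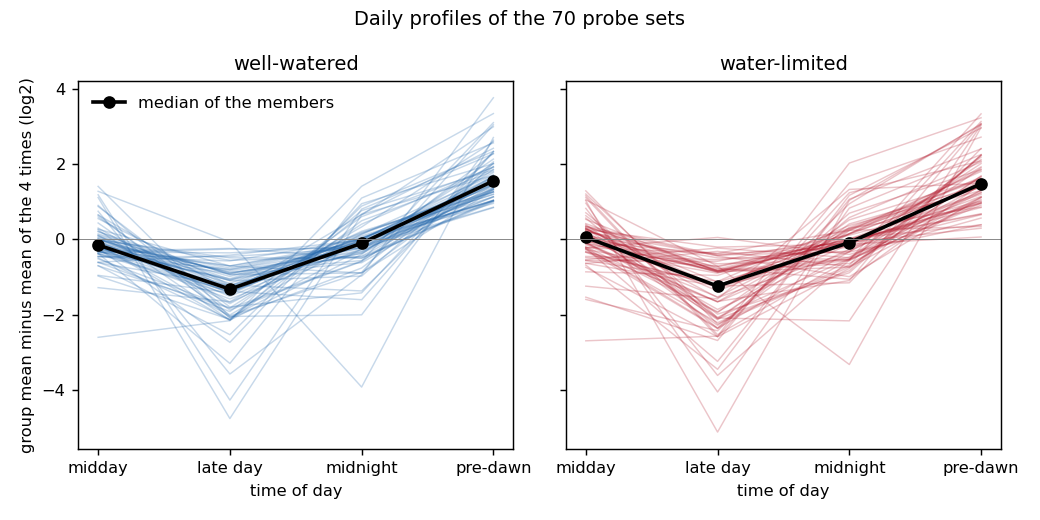
Daily profiles of the 70 probe sets in well-watered (left) and water-limited (right) rosettes: each thin line is 1 probe set, drawn as the group mean of 3 arrays minus its own mean over the 4 times (log2), and the thick line is the median. The left panel shows values that chose the members. In the right panel the median is again highest before dawn and lowest at late day, the time at which 61 of the 70 members had their lowest water-limited mean.

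The lowest water-limited mean was at late day in 61 members, at midnight in 7 and at midday in 2. The next highest water-limited time was midday for 38 members, midnight for 29 and late day for 3, and 50 of the 70 had the same next highest time in both regimes. The spread between replicates was widest at late day in the water-limited group, where the median SD of the members was 0.46 log2 (n = 3 arrays). In the other 7 groups it lay between 0.22 and 0.33.

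Control probe sets at the 3′ and 5′ ends of housekeeping transcripts show how far the measured RNA was skewed to the 3′ end. In the water-limited arrays the 3′ minus 5′ difference for GAPDH was 1.58 to 1.64 log2 before dawn and 1.17 to 1.43 at midday, with no overlap, and 1.49 to 1.75 over late day and midnight. For ubiquitin it was 1.06 to 1.14 before dawn, below the ranges at midday (1.25 to 1.34) and midnight (1.23 to 1.46) and overlapping that at late day (1.05 to 1.27). The actin range was 4.40 to 4.72 before dawn, above those at midday (4.23 to 4.39) and late day (4.02 to 4.25) and within that at midnight (4.08 to 5.19). Their part in the result was not tested.

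**Figure D2:**
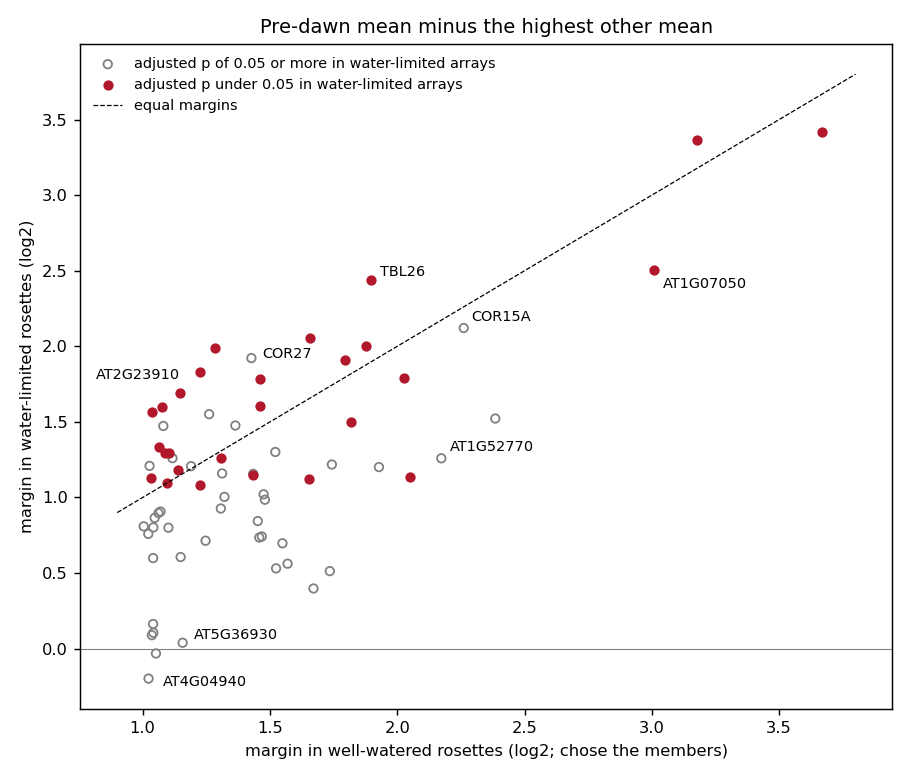
Margin of each of the 70 probe sets in water-limited rosettes (vertical axis, log2) against its margin in well-watered rosettes (horizontal axis, log2; these values chose the members, so all lie at 1 or more). Filled points are the 27 called pre-dawn peaks in the water-limited arrays, open points are the other 43, and the dashed line marks equal margins. AT4G04940 lies below 0 on the vertical axis and AT5G36930 close to it.

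Among the cold-responsive members and their relatives, COR15A, COR15B and AT4G30650 had higher means at midnight than at midday in both regimes, and COR27 and AT4G33980 had lower ones. COR27 alone of these 5 had its lowest mean at midnight. COR15A encodes a small protein of the chloroplast stroma that protects membranes in the cold. Its well-watered values were 8.39, 7.19 and 7.76 log2 at midday, 5.95, 6.95 and 9.34 at late day, 8.93, 9.22 and 10.03 at midnight, and 11.62, 12.03 and 11.31 before dawn. The water-limited values were 6.43, 7.48 and 7.12 at midday, 5.17, 7.72 and 5.65 at late day, 10.16, 9.19 and 9.29 at midnight, and 11.45, 11.96 and 11.59 before dawn. The pre-dawn arrays of each regime lay above all its other arrays, and 1 late-day array in each regime stood well above the other two. In the water-limited arrays COR15A was higher before dawn than at midday by 4.66 log2 (limma, adjusted p = 0.000113) and than at midnight by 2.12 (SE 0.53, adjusted p = 0.0189). As a peak over all 3 times it missed the threshold in limma (adjusted p = 0.0808), and it passed under 3 of 23 alternatives, with adjusted p between 0.00549 and 0.435.

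COR15B, the close relative of COR15A, had water-limited values of 5.61, 5.74 and 5.15 at midday, 5.10, 6.49 and 5.28 at late day, 10.70, 9.80 and 10.14 at midnight, and 11.13, 11.70 and 11.41 before dawn. Both night groups lay far above both day groups, and the step from midnight to pre-dawn was the small one. Pre-dawn exceeded midday by 5.91 log2 (limma, adjusted p = 3.43e-07) and midnight by 1.2 (adjusted p = 0.0375), and the peak over all 3 times had an adjusted p of 0.154. AT4G30650, of the low-temperature and salt responsive protein family, had pre-dawn values of 12.11, 12.26 and 11.97 in water-limited rosettes and 12.06, 12.11 and 12.11 in well-watered ones. Its water-limited midnight values of 11.60, 10.85 and 11.36 lay close below, a difference of 0.84 log2 that missed the threshold in limma (adjusted p = 0.0981), while pre-dawn exceeded midday by 2.82 (adjusted p = 8.39e-05).

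COR27 was the named member with the largest difference between midnight and pre-dawn means, in both regimes. In well-watered rosettes it read 2.96, 2.22 and 3.18 log2 at midnight and 9.31, 9.60 and 9.30 before dawn. The water-limited values were 7.78, 7.58 and 7.48 at midday, 4.95, 6.91 and 5.71 at late day, 4.08, 3.32 and 2.34 at midnight, and 9.37, 9.62 and 9.62 before dawn. From midnight to pre-dawn, 6 h apart on the clock, the water-limited difference was 6.29 log2 (limma, adjusted p = 1.95e-06). Against midday it was 1.92 (SE 0.45, adjusted p = 0.014), and the peak over all 3 times had an adjusted p of 0.0707. AT4G33980, which encodes a protein closely related to COR27, was called a pre-dawn peak in the water-limited arrays, with a margin of 1.61 log2 over midday (SE 0.26, limma, adjusted p = 0.0108), a call that held under 18 of 22 alternatives. Its water-limited pre-dawn values of 7.32, 7.17 and 7.33 lay above all 9 others, which ended at 5.77, and its late-day values of 2.97, 2.91 and 3.3 were the lowest group.

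**Figure D3:**
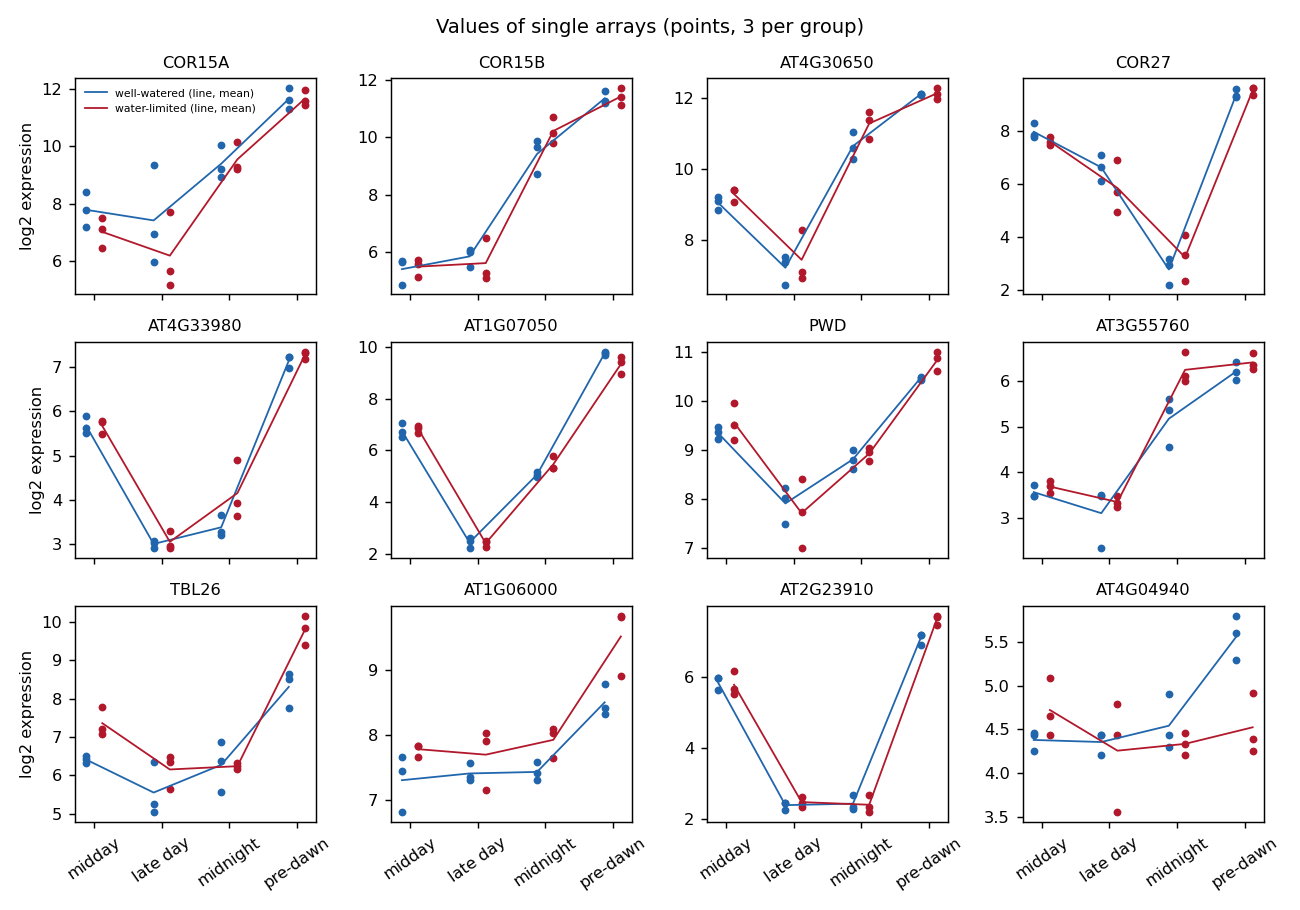
Log2 expression of 12 member genes on every array, by time of day, in well-watered (blue) and water-limited (red) rosettes. Points are single arrays (3 per group) and lines join group means. COR15A, COR15B and AT4G30650 have higher means at midnight than at late day, and COR27 lies between 2.22 and 4.08 at midnight. AT4G04940 stands out before dawn in the well-watered arrays, with water-limited values of 4.39, 4.92 and 4.25 at that time.

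Among genes of starch metabolism, PWD (AT5G26570) was a member. Its well-watered pre-dawn values were 10.50, 10.43 and 10.48 log2, and its water-limited ones 11, 10.61 and 10.87. The lowest water-limited group was late day, at 7.75, 7.0 and 8.41, and the next highest was midday, at 9.21, 9.52 and 9.97. Before dawn PWD exceeded midday by 1.26 log2 (SE 0.30, limma, adjusted p = 0.0151), late day by 3.11 (adjusted p = 6.31e-06) and midnight by 1.89 (adjusted p = 0.00109), with an adjusted p of 0.073 for the peak over all 3. AT3G55760, which encodes a chloroplast protein that takes part in starch turnover, had a margin of 1.04 log2 in well-watered and of 0.16 in water-limited rosettes. In well-watered rosettes it read 4.56, 5.36 and 5.62 at midnight and 6.03, 6.20 and 6.43 before dawn. In water-limited rosettes midnight was at 6.64, 6.01 and 6.11 and pre-dawn at 6.35, 6.28 and 6.61, so these groups overlapped (limma, adjusted p = 0.641), while pre-dawn still exceeded midday by 2.73 (adjusted p = 1.67e-06).

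AT1G07050 had the largest well-watered margin of the named genes, 3.01 log2. It encodes a protein with a CCT motif, the domain found in CONSTANS and the clock's pseudo-response regulators. The well-watered values were 6.70, 6.50 and 7.04 at midday, 2.47, 2.2 and 2.61 at late day, 5.06, 4.96 and 5.15 at midnight, and 9.80, 9.70 and 9.76 before dawn. Water-limited rosettes gave 6.68, 6.88 and 6.92, then 2.5, 2.46 and 2.24, then 5.30, 5.30 and 5.76, and 9.43, 9.61 and 8.97 before dawn, in the same order of times. No 2 groups of times overlapped in either regime. The water-limited margin was 2.51 log2 over midday (SE 0.20, limma, adjusted p = 3.98e-05), a factor of 5.68, and pre-dawn exceeded late day by 6.94 (adjusted p = 9.77e-11). All 3 water-limited pre-dawn arrays lay below the 3 well-watered ones, by 0.42 log2 in the means.

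Larger margins still were found in a pair of probe sets without a gene assignment, picked out after their values were seen. 267364_at read 9.84, 9.51 and 9.87 log2 before dawn in water-limited rosettes and at most 6.59 at any other time, a margin of 3.37 over midday (SE 0.21, limma, adjusted p = 4.47e-06). 247668_at read 8.11, 7.68 and 7.74 before dawn and at most 4.81 at the other times, a margin of 3.42 (SE 0.38, limma, adjusted p = 0.000678). Outside pre-dawn only 1 of its arrays, at well-watered midnight (5.08), reached the filter value of 5. It thus passed the filter through its pre-dawn arrays, which limits what its adjusted p can show. The same limit holds for 261431_at, called a peak (limma, adjusted p = 0.00421), which reached 5 on pre-dawn arrays only. It also holds for 248332_at, AT1G52770, AT1G16850 and AT1G17665, which reached 5 on pre-dawn arrays only and were not called. The probe sets 267364_at and 247668_at, and those of AT1G07050, TBL26 and AT2G23910, passed the peak threshold under every alternative that gave them a value.

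TBL26 and AT1G06000, members linked to the cell wall and to flavonols, were called pre-dawn peaks and had their highest values in water-limited rosettes before dawn. TBL26 belongs to the TRICHOME BIREFRINGENCE-LIKE family, whose members acetylate wall polysaccharides. It read 8.52, 7.77 and 8.65 log2 before dawn in well-watered rosettes and 10.16, 9.41 and 9.85 in water-limited ones, with no overlap. Its increase of 1.49 was the largest of the 70 members at that time. Its water-limited margin over midday was 2.44 log2 (SE 0.26, limma, adjusted p = 0.000569). AT1G06000 encodes a flavonol 7-O-rhamnosyltransferase, which adds a sugar to flavonols. It read 8.32, 8.42 and 8.79 before dawn in well-watered rosettes and 9.84, 8.92 and 9.82 in water-limited ones, a difference of 1.02 with no overlap, and its water-limited margin over midnight was 1.60 (SE 0.28, limma, adjusted p = 0.0153), a call that held under 19 of 23 alternatives. Its water-limited means at midday, late day and midnight lay close together, at 7.78, 7.70 and 7.93 log2. GTR1, a glucosinolate transporter named here after its values were seen, read 9.18, 9.01 and 8.94 before dawn in water-limited rosettes and had a margin of 1.1 (SE 0.17, limma, adjusted p = 0.00853), a call that held under 22 of 23 alternatives, with overlapping regimes at all 4 times.

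Further members that encode enzymes or other proteins of known families were called peaks. AT2G23910, of the NAD(P)-binding Rossmann-fold family, was near the floor at late day and midnight, at 2.2 to 2.68 log2 over both regimes, and at 7.66, 7.45 and 7.70 before dawn in water-limited rosettes. Its water-limited margin over midday was 1.83 (SE 0.20, limma, adjusted p = 0.000569). AT4G16146 encodes a protein of the cAMP-regulated phosphoprotein family and was high at 3 of the 4 times, with a dip at late day to 4.07, 4.53 and 3.50 in water-limited rosettes. Pre-dawn, at 10.12, 10.45 and 10.42, exceeded midday by 1.29 (SE 0.24) and late day by 6.29, with an adjusted p of 0.0235 for the peak in limma. The cyclophilin gene AT2G21130 (margin 1.15, adjusted p = 0.00909), the saccharopine dehydrogenase family gene AT5G39410 (margin 1.29, adjusted p = 0.0132) and the beta-glucosidase gene AT5G49900 (margin 1.12, adjusted p = 0.0404) were also called by limma. These calls held under 21 of 23, 18 of 23 and 10 of 22 alternatives, and that of AT4G16146 under 15 of 23. For AT5G49900 the adjusted p ran up to 0.199 in limma over those alternatives.

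Receptors and signalling proteins were a mixed group. AT5G59670, a leucine-rich repeat receptor kinase gene, was called a peak, with water-limited pre-dawn values of 7.81, 8.55 and 8.21 log2 against 7.05, 6.99 and 7.13 at midday (margin 1.13, SE 0.22, limma, adjusted p = 0.0289), a call that held under 15 of 23 alternatives. AT5G36930 encodes a resistance protein of the TIR-NBS-LRR class. It read 6.53, 6.54 and 6.75 before dawn in well-watered rosettes and 5.09, 6.72 and 5.23 in water-limited ones. Only water-limited replicate 2 reached the well-watered level, and the margin was 0.04 log2 (limma, adjusted p = 1). The protein kinase gene AT1G48210 had a margin of 0.80 (adjusted p = 0.0733), and AT1G52770, of the NPH3 family linked to phototropism, one of 1.26 (adjusted p = 0.147), both in limma.

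The copper amine oxidase gene AT1G31690 was represented by 2 probe sets, and AT4G17140, which encodes a protein with a pleckstrin homology domain, by another pair. For AT1G31690 pre-dawn exceeded midnight by 2.42 and 2.43 log2 in the water-limited arrays (limma, adjusted p = 0.00115 and 0.0044) and midday by 0.40 and 0.74, which missed the threshold (adjusted p = 0.561 and 0.349). At midday its water-limited values on 246573_at were 5.90, 6.97 and 6.70, and before dawn 6.50, 7.67 and 6.60, so the groups overlapped. The probe sets of AT4G17140, the lower of which is outside the naming rule, had margins of 1.16 and 0.90 (limma, adjusted p = 0.108 and 0.309).

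AT4G04940, of the WD40 repeat family, was highest at midday in water-limited rosettes. In well-watered rosettes it read 5.61, 5.29 and 5.80 log2 before dawn and at most 4.90 at the other times. Under water limitation it read 4.39, 4.92 and 4.25 before dawn and 5.09, 4.43 and 4.65 at midday, a margin of -0.20 (SE 0.29, limma, adjusted p = 1). The other member with a negative margin, 262832_s_at, read 9.94, 11.40 and 9.97 before dawn under water limitation against 12.22, 11.72 and 12.10 when well-watered. In AT5G36930 and in 262832_s_at, water-limited pre-dawn replicate 2 was the high array, and over the 70 members it was the highest of the 3 pre-dawn arrays in 37.

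The remaining named genes had margins that did not pass as peaks in limma. AT1G16850 had a margin of 1.48 over late day (adjusted p = 0.0624), where water-limited replicate 2 at 4.68 log2 stood above replicates 1 and 3 at 3.44 and 3.51. AT2G38465 had one of 1.21 (adjusted p = 0.401), AT1G17665 one of 0.53 (adjusted p = 0.856), and the alpha/beta hydrolase family gene AT4G12830 one of 0.76 (adjusted p = 0.073). AT2G47390, a chloroplast glutamyl endopeptidase gene named here after its values were seen, had a margin of 0.87 (adjusted p = 0.113).

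The difference between the regimes is described without a test, because the well-watered arrays chose the members. Its median over the 70 members was 0.13 log2 at midday, then -0.02 at late day, then 0.05 at midnight, and -0.02 before dawn, beside 0.04, 0.01, -0.02 and 0.03 over all probe sets tested. At midday all 3 water-limited arrays lay above all 3 well-watered ones in 9 members (7.38% of all probe sets tested) and below in 4 (4.49%). The counts at late day were 0 above (7.29%) and 5 below (6.17%), and those at midnight 10 above (5.97%) and 7 below (9.48%). Before dawn they were 16 above (17.5%) and 10 below (14.3%). Single members spread far wider than the medians, from -1.58 to 1.49 log2 before dawn and from -1.76 to 1.44 at midnight. Nothing is read from these counts, since the choice of members set a high well-watered mean before dawn and lower ones at the other times.

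**Figure D4:**
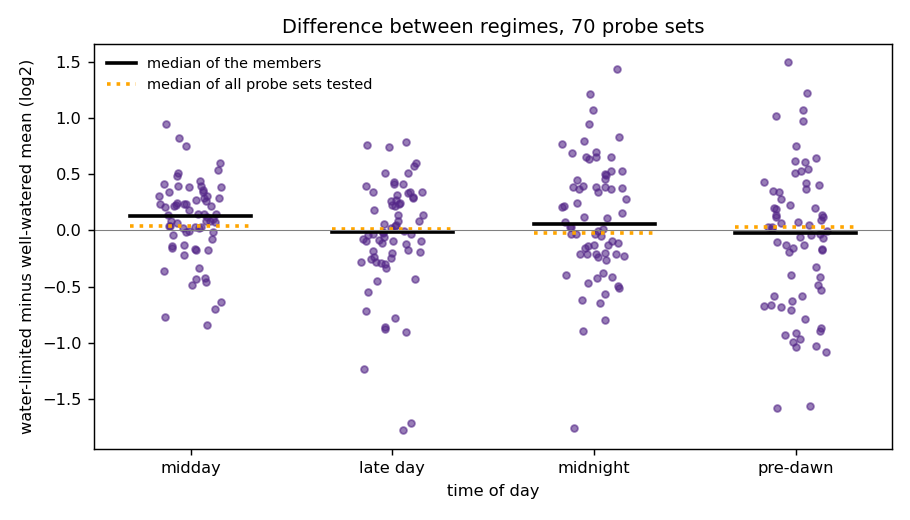
Water-limited minus well-watered mean (log2) of each of the 70 probe sets at the 4 times, with the median of the members (solid bar) and of all 11926 probe sets tested (dotted bar). Points are spread sideways for sight only. Both medians lie near 0 at every time, and the members spread on both sides of it.

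The members' pathways were followed in the water-limited arrays through 16 gene lists. The lists hold 577 entries, and 77 probe sets were matched to them by symbol or synonym. In the clock list 3 of 36 entries were named on the array, and in the photosynthesis list 7 of 43. The counts cover only the matched genes and say nothing of the others. Of the matched probe sets, 60 were tested and 4 were members (COR15A, COR15B, COR27 and PWD). AT4G33980, the relative of COR27, was matched to no list by name. Of the 60, 17 were higher and 6 lower before dawn than at midday, 21 higher and 12 lower than at late day, and 13 higher and 10 lower than at midnight. Of all probe sets tested, 6.38% were higher than at midday, 19.2% higher than at late day and 6.2% higher than at midnight, and 20.5% were lower than at 1 or more of these times. The share lower than at each single time is not given, so the lower counts of the lists have no matching share beside them. In the cold list all 5 tested genes exceeded late day, 4 exceeded midday and 2, COR15A and COR15B, exceeded midnight. COR47 and LTI30, which encode dehydrins, are in that list and had water-limited midnight means of 11.61 ± 0.55 and 8.72 ± 0.65 log2 (SD, n = 3) beside pre-dawn means of 11.99 ± 0.12 and 8.55 ± 0.20. The starch list had 5 tested probe sets, of which 5 exceeded late day, 3 midday and 3 midnight. They were PWD, APL3, SBE2.2, DPE1 and AT4G24450, a second gene to which the annotation gives the symbol PWD. APL3, a subunit of ADP-glucose pyrophosphorylase in starch synthesis, had a margin of 1.4 log2 (limma, adjusted p = 0.073).

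The clock list had 2 tested genes matched by name, COR27 and GI. GI, which encodes the clock protein GIGANTEA, read 8.32 ± 0.06 log2 at midnight and 8.52 ± 0.14 before dawn in water-limited rosettes. It lay at 2.32 at both midday and late day there. Its well-watered means were 8.07 at midnight, 8.44 before dawn, 2.47 at midday and 2.32 at late day. All times are those given by the sample labels, which were not tested against known phases of clock genes. Photosynthesis genes (7 tested) had 0 higher before dawn than at midday or late day, 2 lower than at late day, and 1 higher and 3 lower than at midnight. Chlorophyll, haem and carotenoid synthesis (9 tested) had 0 higher, with 2, 2 and 3 lower than at midday, late day and midnight. Among 8 phenylpropanoid and flavonoid genes, 4 were higher than at midday, 6 higher and 1 lower than at late day, and 4 higher than at midnight. Of the 60, UF3GT and AT5MAT of this list, which encode enzymes that decorate anthocyanins, were the 2 called pre-dawn peaks, with margins of 2.83 and 2.83 (limma, adjusted p = 0.0173 and 0.0235). Neither is a member: UF3GT had well-watered means of 6.81 ± 0.25 before dawn and 5.96 ± 0.37 at midday, and AT5MAT 3.43 ± 0.28 and 3.82 ± 0.43 (SD, n = 3). The water-limited pre-dawn mean of AT5MAT was 7.1, and its means in every other group lay between 3.33 and 4.27. AT5MAT could pass the filter value of 5 only with those pre-dawn arrays, which limits what its adjusted p can show. The lists for drought and ABA and for heat shock had no tested probe set with a name. The 8 other lists had 0 called peaks and 0 members among their tested probe sets. Of these, auxin and growth (5 tested) had 0 higher before dawn and 1, 3 and 2 lower than at midday, late day and midnight, and sugar and water transport (7 tested) had 2, 2 and 1 higher, with 0, 0 and 1 lower.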

How the data were processed

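The data were 24 Affymetrix arrays of RNA from whole rosettes, in 8 groups of 3. The deposited table holds log2 values of 22810 probe sets that the authors computed with GCRMA, per the submitters' processing notes, with no version given in the sources used here. No further normalization was applied. GCRMA leaves a floor, here at 2.2 log2, where 25.5% of all values lay, so differences of weakly expressed probe sets are understated. Of 22746 probe sets that are not controls, 11926 had 5 or more on at least 3 arrays. Of the 22746, 13513 have 1 gene in the platform annotation, 503 several and 8730 none, and names were updated through RefSeq (TAIR10.1). Array medians lay between 4.66 and 4.86, and the number of arrays limits the precision.

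limma 3.58.1 in R 4.3.3 was fitted to the 12 water-limited arrays (8 residual and 4.67 prior degrees of freedom). Pairwise tests were two-sided and the peak test one-sided, all adjusted by Benjamini-Hochberg over 11926 probe sets at a threshold of 0.05. SE is that of the difference from the next highest time. The fit was tested on simulated data. The deposited arrays were checked for identical pairs, with 0 found. In the median, replicates with the same number deviated together no more than those with different numbers. The correlations of their deviations ran from -0.25 to 0.45 over 18 pairs of the same number, with a median of 0.03. Over 36 pairs of different numbers they ran from -0.42 to 0.32, also with a median of 0.03.

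The members and the gene lists were chosen with earlier results of these data known. Named genes have probe sets of exactly 1 gene. They are the 15 members with the largest well-watered margins, the members on a gene list, the 8 largest and 8 smallest water-limited margins, the 8 members most higher and the 8 most lower before dawn in water-limited rosettes, and those just inside and outside the limit. Alternatives were no filter, a stricter filter, the filter on water-limited arrays alone, other normalization, moderation with a trend, array weights, all 24 arrays in the fit, a replicate block, another threshold, other ways to choose the members, probe sets of 1 gene alone, and each array left out. The fit without late-day arrays was added after the data were seen. Promoter motifs were not analysed here.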

Additional observations from a re-analysis of the deposited data

How the results depend on the processing

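The count of members called pre-dawn peaks in the water-limited arrays (27) was the result that moved most. It was 47 with array quality weights, 14 with no filter, 14 at an adjusted p under 0.01, and 10 of the 30 members when probe sets of exactly 1 gene were tested alone. Leaving out 1 water-limited array at a time gave 11 to 40, with the lowest counts without pre-dawn replicate 1 (11), pre-dawn replicate 3 (12) and midnight replicate 2 (16). The cause was not tested. Some of these settings hold fewer arrays or probe sets by construction. With the replicate block it was 28, and with all 24 arrays in the fit 39. With probe sets of 1 gene alone, 24, 28 and 25 of the 30 members lay above midday, late day and midnight. These 3 pairwise counts stayed within 1.5 times the reported ones under all other settings run. Other ways to choose the members, each well-watered array left out included, kept between 60 and 70 of the 70. For the 32 probe sets described, 716 recomputations of the margin gave 4 changes of sign, all in members that missed the threshold. AT1G31690 on 246573_at was at -0.016 with array weights. AT5G36930 was at -0.346 with array weights and between -0.483 (pre-dawn replicate 2 left out) and 0.335 with 1 water-limited array left out, with -0.046 for midday replicate 1. Of the 13 described probe sets past the threshold, 5 passed it under every alternative that gave them a value. The 3 arrays per group, the wide spread at late day and the floor of the scale limit what could be called.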
